A study of Homo sapiens with 2 samples.

Results

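The 45S ribosomal RNA genes of the RefSeq annotation that lie on the assembled part of chromosome 21 were examined for peaks of DEK, an abundant nuclear protein that binds DNA and chromatin, in the human renal carcinoma cell line 786-O. The 9 genes were RNA45SN1, RNA45SN2 and RNA45SN3, which are the full precursors, and their 18S parts RNA18SN1, RNA18SN2 and RNA18SN3 and 28S parts RNA28SN1, RNA28SN2 and RNA28SN3, out of 58843 placed RefSeq genes. Because the 18S and 28S genes lie inside the precursors, the 9 genes are 3 loci. All peaks overlapping a gene or the 5 kb on either side of it were taken, which gave 16 of the 19128 peaks of replicate 1 and 14 of the 24580 of replicate 2. The genes were selected on these same peaks, since they have peaks in both lists, so the presence of peaks there is a description and was not tested. Both libraries belong to 1 group, labelled as a negative control with a wild-type genotype, with DEK as the antibody and a Cas9 name in the library description. From the labels it cannot be told what the negative control stands for, whether the 2 replicates came from separate cultures (the spread between them may be technical), or whether the cells carried Cas9. No library of edited cells, input chromatin or another antibody was analysed here, so no condition could be compared and no test between groups was possible.

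In human cells the 45S precursor is transcribed by RNA polymerase I in the nucleolus from tandem repeats on the short arms of the acrocentric chromosomes. It begins with the 5' external transcribed spacer (ETS), continues with the 18S rRNA of the small ribosomal subunit, the internal transcribed spacers (ITS1 and ITS2) around the 5.8S rRNA and the 28S rRNA of the large subunit, and ends with a short 3' ETS. Long intergenic spacers separate the units. A cell carries many more copies than the assembly does, only some of them are transcribed, and the copies are so alike that a short read often fits several of them.

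In the GRCh38 annotation the 3 precursors spanned 8205988 to 8219302 (RNA45SN2), 8389035 to 8402343 (RNA45SN3) and 8433222 to 8446572 (RNA45SN1) on chromosome 21, with lengths of 13315, 13309 and 13351 bp. The 18S sequence was annotated before the 28S sequence in all 3, so transcription runs towards higher coordinates. The 18S sequence began 3643, 3631 and 3654 bp and the 28S sequence 7900, 7891 and 7924 bp after the precursor start. RNA45SN3 and RNA45SN1 were neighbours with 30878 bp between them, whereas 169732 bp separated RNA45SN2 from RNA45SN3. A partial copy, annotated as the pseudogenes RNA18SP5, RNA5-8SP10 and LOC110467529 (an 18S, a 5.8S and a shortened 28S sequence), lay 34.5 kb past the end of RNA45SN2.

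Short stretches of the repeat could be shown because microRNA hairpins are annotated in it. MIR6724 lies just before the precursor start in each copy, and MIR10396B lies in the 5' ETS of RNA45SN1. The first 2 sequences below are shown because they let 2 copies be compared base by base, and the last because it samples the 5' ETS, where no peak was called. They come from RefSeq on GRCh38.p14, plus strand, 5′ to 3′, and capitals mark the mature microRNAs.
MIR6724-4, before RNA45SN1, chr21:8432530-8432621: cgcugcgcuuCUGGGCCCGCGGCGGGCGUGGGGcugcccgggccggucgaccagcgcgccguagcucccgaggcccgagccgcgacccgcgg
MIR6724-2, before the partial copy, chr21:8249505-8249596: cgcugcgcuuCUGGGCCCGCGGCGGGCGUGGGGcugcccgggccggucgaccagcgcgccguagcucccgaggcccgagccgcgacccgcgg
MIR10396B, in the 5' ETS of RNA45SN1, chr21:8436324-8436374: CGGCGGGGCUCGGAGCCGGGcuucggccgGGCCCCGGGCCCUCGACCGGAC
The MIR6724 hairpins of the 2 copies were identical over all 92 bases. A read that fell wholly within this stretch would fit both places. The bases were 83.7% G or C in MIR6724 and 86.3% in MIR10396B. The sources used here do not say how the authors treated reads that fit several places, and the copies are therefore not counted as replicates of each other.

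Along the unit the shared regions lay in 3 places: about 1.80 kb before the precursor start at 2 of the 3 copies, in the 18S sequence, and near the 3' end of the 28S sequence. All 3 copies had peaks in the 18S and 28S sequences in both libraries. Of the 16 peaks of replicate 1, 6 had their summit in 18S, 6 in 28S, 2 upstream and 2 downstream, and of the 14 of replicate 2 the counts were 5, 5, 3 and 1. Over the 3 copies, peaks covered 62.9% of the 18S bases in replicate 1 and 38.8% in replicate 2, and 11.4% and 9.96% of the 28S bases. In RNA45SN1 the 18S share was 74.7% in replicate 1, where 1 peak of 1397 bp spanned most of it, and 36.5% in replicate 2. The 5' ETS, ITS1, the 5.8S sequence, ITS2 and the 3' ETS had no base under a peak in either library at any copy.

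**Figure D1:**
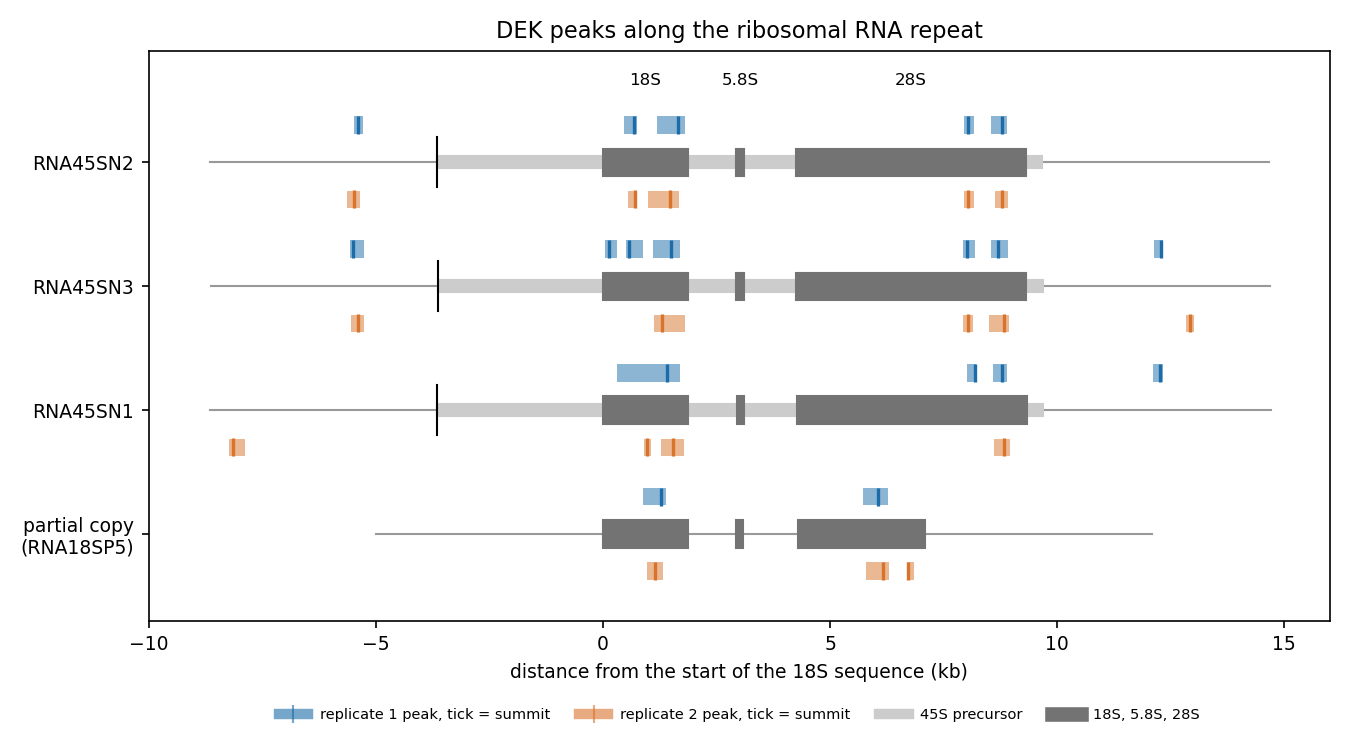
Peaks of both replicates along the 3 precursor copies and the partial copy, drawn against the distance in kb from the start of the 18S sequence. Coloured bars are peaks with a tick at the summit (blue above the line for replicate 1, orange below it for replicate 2), light grey is the precursor, dark grey the 18S, 5.8S and 28S sequences, the black tick the precursor start and the thin line the window of 5 kb on either side. All 3 precursor copies have peaks in 18S and near the 3' end of 28S, and none has a peak in the transcribed spacers.

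**Figure D2:**
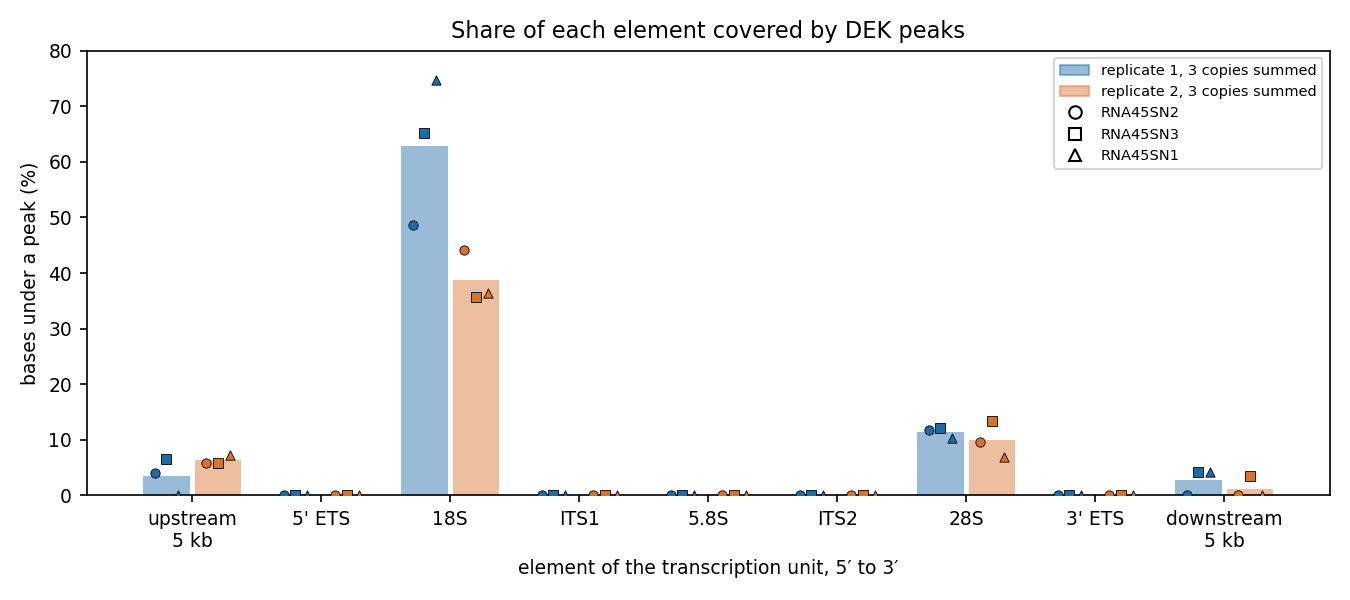
Percent of the bases of each element under a peak. Bars give the 3 copies summed for each replicate, and symbols give the single copies. The 18S bars stand at 62.9% and 38.8% and the 28S bars at 11.4% and 9.96%, and the 5 elements 5' ETS, ITS1, 5.8S, ITS2 and 3' ETS are at 0.

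The start of the precursor, where the RNA polymerase I promoter lies, was not within a peak. The nearest peak edge was 1632 and 1694 bp away at RNA45SN2 (replicates 1 and 2), 1621 and 1623 bp at RNA45SN3, and 3955 and 4221 bp at RNA45SN1. The summits closest to an annotated end of the precursor lay at the other end, 856 to 983 bp before the 3' end in all 3 copies. Regions within 1 kb of an end of these genes were therefore at the 3' end of the unit and not at its promoter. A missing peak means only that nothing passed the authors' threshold. At the median background of the peaks in these windows, 4.68 expected fragments in replicate 1 and 5.35 in replicate 2, at least 14 and 15 overlapping fragments would have been needed to reach the lowest p of the list. At the lowest background of these peaks, 1.93 and 2.36, found upstream of RNA45SN3, 9 and 10 fragments would have been enough. The background at the precursor start itself could not be solved without a peak there.

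Overlap of at least 1 bp between the replicates joined these peaks into 11 shared regions, 5 at RNA45SN2, 4 at RNA45SN3 and 2 at RNA45SN1. All 9 genes had a shared region within the 5 kb window, against 16.1% of all placed genes, and a peak of replicate 1 (21.9%) and of replicate 2 (25.7%). All 9 also had a shared region overlapping the gene itself, against 10.4% of placed genes. These members were selected for it, and nothing is read from the contrast. Among the 7048 genes of 10 to 20 kb, 10 genes (0.142%) had at least 4 shared regions in this window. RNA45SN2 with 5 and RNA45SN3 with 4 were among them, and RNA45SN1 with 2 was not. CFLAR-AS1 on chromosome 2 also had 5, and no gene of this length had more. These counts rest on the peaks that selected the members, and genes with at least 4 were named after their values were seen. Because the copies may also share reads, nothing is read from this share either. Of the peaks in the windows, 11 of 16 in replicate 1 and 12 of 14 in replicate 2 overlapped a peak of the other library, against 67.8% and 52.2% of all peaks. Selecting genes with peaks in both lists favours such overlap, and peaks of copies that may share reads are not independent. This contrast is therefore a description only.

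The height of a peak is given below as the authors' fold enrichment, a linear ratio of the summit to its local background in 1 library. The pileup is the number of overlapping fragments at the summit and was solved from the deposited fold enrichment and p, as was the background, the number of fragments expected there. Fold enrichment had a median of 4.40 in replicate 1 (range 2.92 to 6.003) and 4.11 in replicate 2 (3.03 to 5.65). The medians of all peaks were 3.99 and 3.89. Of the ribosomal peaks, 11 of 16 in replicate 1 lay above the list median and 5 below, and 7 of 14 in replicate 2 lay below. Fold enrichment of at least 5 was reached by 5 of 16 peaks of replicate 1 and 3 of 14 of replicate 2, against 14.3% and 12.9% of all peaks.

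The strongest shared region was the upstream region of RNA45SN3 (8387090 to 8387414), at 5.46 in replicate 1 and 5.65 in replicate 2 (5.56 ± 0.133; SD, n = 2 here and below). Its counterpart at RNA45SN2 (8204001 to 8204356) had 6.003 and 4.36 (5.18 ± 1.16). The replicates stood close together at RNA45SN3 and far apart at RNA45SN2, and the 2 copies did not differ beyond that spread. The summits lay 1749 to 1860 bp before the precursor start in all 4 peaks, and the midpoints of the 2 regions, 1791 and 1810 bp before it, were within 50 bp of each other. The pileups were low, 19 and 15 fragments at RNA45SN2 and 15 and 18 at RNA45SN3, over a background of only 1.93 to 2.67. The 1.93, at RNA45SN3 in replicate 1, was the lowest background found in that library. The fold enrichment of 5.46 there is a ratio to this lowest value. A pileup of 15 has an exact 95% Poisson interval of 8.40 to 24.7, which covers counting error only, as do all such intervals here.

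RNA45SN1 had no peak at this position in either library. Its only upstream peak was in replicate 2 alone, 4497 bp before the start, with a fold enrichment of 3.62, a pileup of 35 and a background of 8.93. At that background at least 21 fragments would have been needed to pass, more than the 15 and 18 found upstream of the other copies in the same library. A peak of equal pileup would not have been called at that background, and whether the background is as high nearer the start of RNA45SN1 was not tested. That peak lay just inside the 5 kb limit. The nearest peaks beyond the limit were 9511 bp (replicate 1, fold enrichment 3.59) and 9448 bp (replicate 2, 2.56) past the end of RNA45SN2. The hairpin of MIR6724 was 947 to 1020 bp from the upstream peaks of RNA45SN2 and RNA45SN3. Its sequence was read only at RNA45SN1 and the partial copy, so the hairpins of RNA45SN2 and RNA45SN3 were not compared.

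In the 18S sequence, which encodes the RNA of the small subunit, each copy had its highest summit towards the 3' end. At RNA18SN1 (8437177 to 8438670) fold enrichment was 5.61 in replicate 1 and 5.11 in replicate 2 (5.36 ± 0.358), with 29 and 31 fragments. At RNA18SN2 (8210634 to 8211441) it was 4.41 and 5.25 (4.83 ± 0.593), with 24 and 29 fragments, and at RNA18SN3 (8393778 to 8394462) 4.52 and 4.40 (4.46 ± 0.0853), with 21 and 23. The means were ordered RNA18SN1, RNA18SN2, RNA18SN3, and neither pair of neighbours differed by more than the larger of their SDs. RNA18SN1 lay above RNA18SN3 in fold enrichment and pileup in both libraries, and their mean fold enrichments differed by more than either SD. The 6 summits were spread between 1298 and 1648 bp past the 18S start, with 112 to 192 bp between the replicates of 1 copy, so no common base could be given for this peak.

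The 18S sequence 5′ of its highest summits had weaker peaks that differed between copies. RNA18SN2 had a second shared region (8210091 to 8210378) with summits 675 and 708 bp past the 18S start and a fold enrichment of 3.22 and 3.03 (3.13 ± 0.140). At RNA18SN3, replicate 1 alone had peaks at 135 bp (3.21) and 578 bp (4.12). At RNA18SN1, replicate 2 had a separate peak at 980 bp (3.18), which fell under the single wide peak of replicate 1. These peaks had 14 to 18 fragments over backgrounds of 3.61 to 4.97.

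In the 28S sequence, which encodes the RNA of the large subunit and its catalytic centre, the peaks were confined to the 3′ part. The first base under a peak was base 3665 to 3752 of 28S, apart from replicate 2 of RNA28SN1, where it was base 4347, and the last was base 4635 to 4693. From the last 18S peak to the first 28S peak, 6127 to 6821 bp held no peak, including the first 3664 bases of 28S in every copy. The 3'-most peak was shared by both replicates at all 3 copies, and the other was shared at RNA28SN2 and RNA28SN3 only.

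The 3'-most region had a fold enrichment of 5.41 and 4.82 at RNA28SN3 (8401160 to 8401609, 5.11 ± 0.419), of 4.44 and 4.76 at RNA28SN2 (8218163 to 8218539, 4.60 ± 0.224) and of 5.03 and 3.87 at RNA28SN1 (8445456 to 8445838, 4.45 ± 0.817). Pileups were 33 and 32, 27 and 33, and 29 and 28 fragments in the same order. RNA28SN3 lay above RNA28SN2 in both libraries, in replicate 2 by little, and RNA28SN2 and RNA28SN1 differed by less than the SD of either. With the position counted from the 28S start, the region summits were at 4497, 4533 and 4545 bp for RNA28SN3, RNA28SN2 and RNA28SN1, each within 50 bp of both others. The 2 replicates of RNA28SN2 were 5 bp apart and those of RNA28SN3 127 bp.

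The peak before it had its summits at 3787 and 3772 bp past the 28S start at RNA28SN2 (fold enrichment 3.73 and 3.37, 3.55 ± 0.255) and at 3764 and 3779 bp at RNA28SN3 (4.13 and 3.57, 3.85 ± 0.396). These 4 summits fell within 23 bp, the tightest position found on the unit. RNA28SN1 had a peak only in replicate 1, at 3921 bp, with a fold enrichment of 4.39 and 24 fragments. The pileup was 21 to 24 fragments in all 5 peaks. RNA28SN1 thus differed from the other copies in the missing call of replicate 2 and in the place of the summit, while its pileup was in their range.

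**Figure D3:**
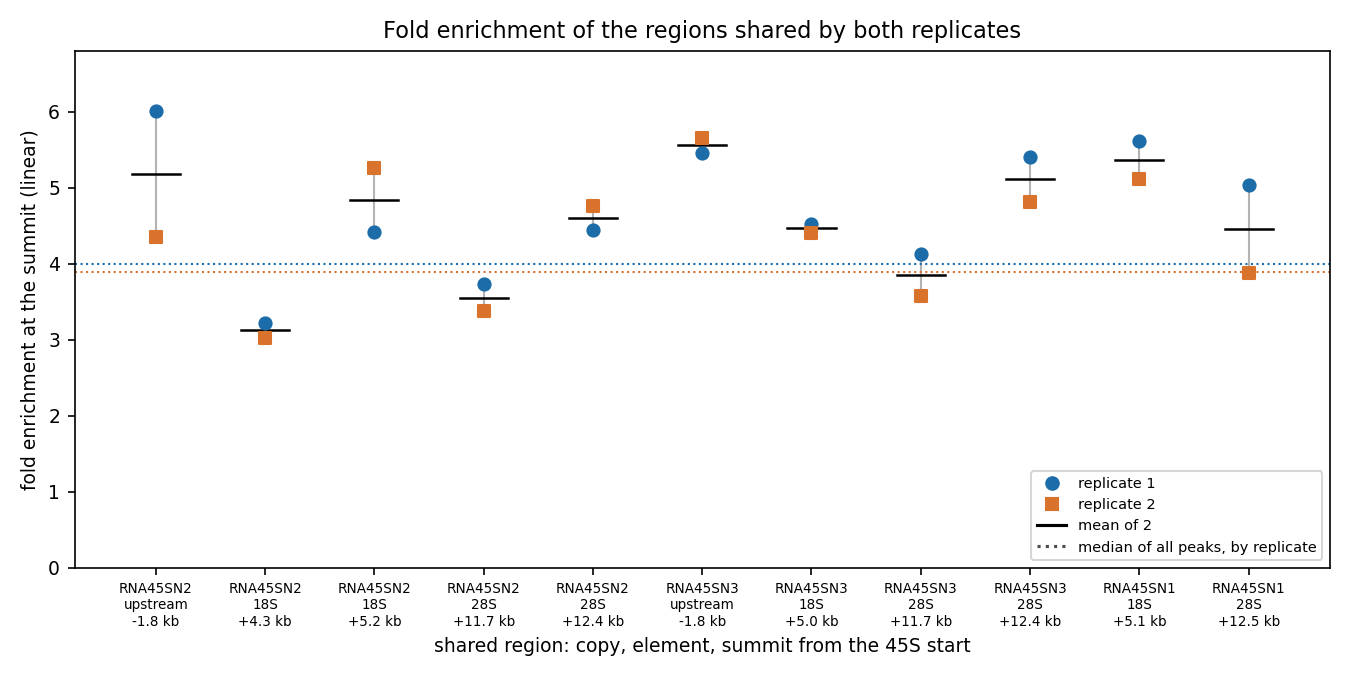
Fold enrichment (linear, as deposited) of the 11 shared regions, ordered by copy and by the distance of the summit from the precursor start. Blue circles are replicate 1, orange squares replicate 2, the black bar is the mean of the 2, and the dotted lines are the medians of all peaks of each replicate (3.99 and 3.89). The upstream region of RNA45SN3 has the highest mean, 5.56, and the 5′ region of RNA18SN2 the lowest, 3.13.

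With all positions counted from the precursor start, 7 of the 11 shared regions had their midpoint within 50 bp of one in another copy. They were the 2 upstream regions and 5 of those in 28S, and none of the 4 regions in 18S had a match. The copies share reads to an unknown extent, so a matched position is no independent repeat of the measurement.

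Downstream of the precursor, RNA45SN3 and RNA45SN1 had peaks in replicate 1 alone 2602 and 2572 bp past the end, with fold enrichments of 2.92 and 3.18. Replicate 2 had its own peak 3250 bp past RNA45SN3, at 3.48. None of these 3 overlapped a peak of the other library, and RNA45SN2 had no downstream peak within 5 kb.

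The background differed along the unit. Expressed as reads per 10 kb, the background was 108 to 164 at the 4 shared upstream peaks, 203 to 323 at the 18S peaks and 264 to 398 at the 28S peaks. It reached 444 to 792 at the 9 peaks in the spacers beyond the windows that were outside the partial copy. The upstream peak of RNA45SN1 in replicate 2, at 548, was within the range of these spacer peaks, and the 3 downstream peaks were at 290 to 414. Over all peaks the median of this background was 219 for replicate 1 and 247 for replicate 2. The lowest values found were 108 and 128. The upstream peak of RNA45SN3 in replicate 1 stood at the lowest value of its library. In those spacer peaks fold enrichment was 2.37 to 3.59 although 24 to 38 fragments overlapped. The rank of a region by fold enrichment thus differed from its rank by pileup: the upstream region of RNA45SN3 had the highest mean fold enrichment of the 11 shared regions with 15 and 18 fragments, while the 3'-most 28S regions had 27 to 33.

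**Figure D4:**
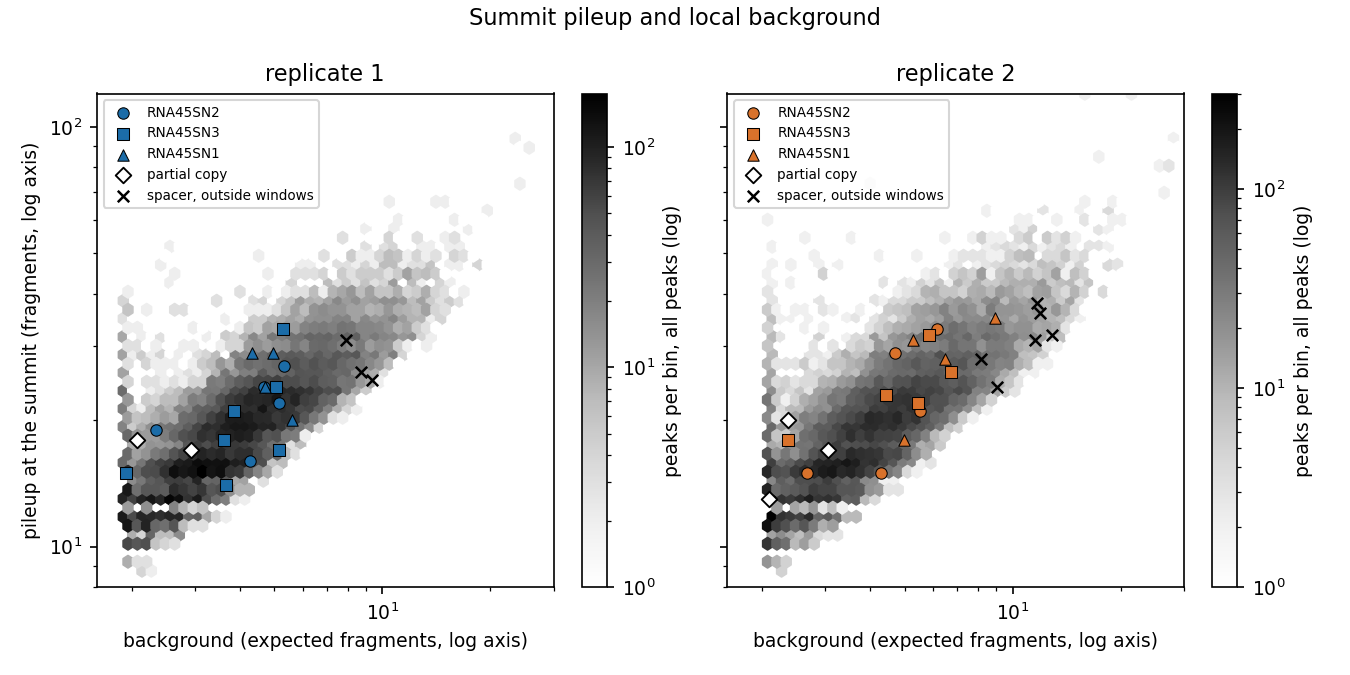
Summit pileup against local background, both in fragments on log axes, for replicate 1 (left) and replicate 2 (right). Grey bins count all peaks, and symbols mark the peaks of each copy, of the partial copy (diamonds) and of the spacers outside the windows (crosses). The ribosomal peaks lie within the range of all peaks. The spacer peaks have backgrounds of 7.90 to 12.9, a range that also holds the upstream peak of RNA45SN1 in replicate 2 (8.93).

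The partial copy carried peaks in both libraries, although it is not among the 9 genes. In RNA18SP5 a shared peak had a fold enrichment of 4.59 and 4.45 and 17 fragments in each library, with summits 1284 and 1139 bp past the start of the pseudogene, which is 1863 bp long against 1869 bp for the full 18S. In LOC110467529, the 28S pseudogene of 2797 bp, a shared peak reached 6.20 and 6.24 with 18 and 20 fragments, above all peaks of the full copies in both libraries. Its summits lay 1767 and 1878 bp past the pseudogene start. The shortened pseudogene was not aligned to the full 28S, so these positions were not set against those of the full copies. Replicate 2 had another peak there at 2420 bp with 4.53. No peak lay near MIR6724-2, 3653 bp or more away, and, as at RNA45SN1, no counterpart of the upstream peak was called. Background at the partial copy was 2.06 to 3.05 expected fragments, below that at the 18S and 28S peaks of the full copies.

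Other rRNA genes were covered less evenly. The RNA5-8SN1, RNA5-8SN2 and RNA5-8SN3 genes lie between 18S and 28S and had shared regions only through the 5 kb window. Of the 17 placed 5S genes of chromosome 1, transcribed by RNA polymerase III, 7 had a peak of replicate 1 in the window, 11 one of replicate 2 and 7 a shared region. RNA5S1, RNA5S2 and RNA5S3 had the same values (3.599 in replicate 1 and 3.59 in replicate 2), as did RNA5S5, RNA5S6, RNA5S7 and RNA5S8 (3.73 and 3.78), because the windows of neighbours overlap. RNA5S12, RNA5S13, RNA5S14 and RNA5S15 had a peak of 3.67 in replicate 2 only. Of the pseudogenes, 1 of 8 for 18S, 1 of 6 for 28S and 1 of 12 for 5.8S had a shared region, in each case the entry of the partial copy, and 30 of 510 for 5S. The mitochondrial rRNA genes RNR1 and RNR2 lay under 1 wide peak per library, with a fold enrichment of 1.31 and 1.92. RNA45SN4 and RNA45SN5 were taken to lie on unplaced scaffolds and were not analysed here. Genes were counted as placed from the order of their start positions in the annotation.

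Genes of the machinery that transcribes and processes the precursor were counted in the same window, against 28.8% of protein-coding genes with a shared region. Of 22 genes of RNA polymerase I transcription, 5 had one. The highest were POLR2F, a subunit common to the nuclear RNA polymerases (4.08 and 5.18), POLR1A, the largest subunit of polymerase I (4.17 and 5.02), and POLR1G, a further subunit (4.12 and 3.98, 2950 bp outside the gene). UBTF, the promoter-binding factor, had 1 peak in each library but no shared region. RRN3, the initiation factor, and TTF1, the termination factor, had no peak in either library. Of 33 genes of precursor processing, 16 had a shared region, led by BOP1, which acts in 28S and 5.8S maturation (6.58 and 3.85), IMP4 of the U3 small nucleolar particle (4.76 and 5.24) and NOLC1 (5.35 and 4.06). The summits of these regions lay outside the genes, by 1002 bp at BOP1, 122 bp at IMP4 and 136 bp at NOLC1. Of 20 genes of ribosomal DNA chromatin, 10 had one, among them the demethylase gene KDM2B (4.26 and 4.31), BAZ2A of the nucleolar remodelling complex (4.90 and 3.46, 1384 bp outside the gene) and the nucleolar deacetylase gene SIRT7 (4.13 and 4.08). The median fold enrichment of the highest region per gene was 4.05, 4.16 and 3.93 for the 3 lists, and 4.12 over all shared regions.

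The 5 shared regions most like the upstream region of RNA45SN3, by the distance over log2 fold enrichment, pileup and background of both libraries (6 values), lay in ZIK1 on chromosome 19 (5.31 and 5.54, distance 0.0864), TENM3 on chromosome 4 (5.25 and 5.40), RBFOX1 on chromosome 16 (5.12 and 5.79) and OPCML on chromosome 11 (5.22 and 5.596), and on chromosome 10, 1561238 bp from the pseudogene KSR1P1 (5.12 and 5.62, distance 0.190). All had 14 to 18 fragments over backgrounds of 1.93 to 2.43. The regions were picked for likeness in these values, so the likeness itself is no result. They show only that regions of such height, pileup and background were also called outside the ribosomal windows.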

How the data were processed

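Per the labels' protocols, chromatin of 786-O cells was precipitated with a sonication-based kit. The submitters' processing notes name GRCh38 (hg38) and, with no roles, the tools deepTools 3.5.1, ChIPseeker 1.32.1, DiffBind 3.6.5, MACS2 2.2.7.1, Bowtie2 2.2.5 and cutadapt 1.18. The authors deposited 1 peak list per library, called separately, per the peak names in the files. The deposited fold enrichment is the authors' ratio of the summit to its local background. The −log10 p and −log10 q deposited by the authors belong to the same summit. The deposited score is the authors' −log10 q times 10, cut to a whole number, in 100% and 99.95% of the peaks, and the last column is the summit offset. Use of a control library and the treatment of multi-mapped reads are not stated there.

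Pileup and background were solved from (pileup + 1)/(background + 1) and the Poisson p, which a whole-number pileup met within 5e-05 in 100% of the peaks of both libraries, with python 3.11.15 and scipy 1.17.1. The solver was tested on simulated data. Backgrounds were whole reads per 10 kb at a fragment length of 178 and 163 bp, apart from the lowest of each library. Those lowest values were 108.4 and 128.3 reads per 10 kb and were left out of this check. Shared regions join peaks of both libraries on chromosomes 1 to 22 and X (19015 and 24457 peaks) that overlap by at least 1 bp, and take the strongest peak of each. Gene positions and hairpins came from RefSeq on GRCh38.p14, which held no sequence of the rRNA genes themselves. The members and lists were chosen with earlier results of these data known. Named were the 9 members, the other rRNA genes with a peak (pseudogenes by count), the 3 highest genes of each list and the 5 most similar regions. Genes named for having no region or at least 4 were chosen after their values were seen. Alternatives were the window, the peak threshold, the overlap, the position tolerance, each summit and each replicate alone.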

Additional observations from a re-analysis of the deposited data

How the results depend on the processing

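The limits are 1 group of 2 libraries, peak lists in place of reads, and copies that share sequence, so no test was made and a missing peak gives no level. From here values are the count of peaks over both libraries (30), of shared regions (11) and of matched regions (7), and the medians over shared regions of fold enrichment (4.60), pileup (23) and background (4.80). Of 58 alternative values, 27 stayed within 1.5 times a count or within the SD between replicates. This tally includes settings with 1 replicate left out, where no region can be shared. There the peaks of the remaining library (14 or 16) stood in for the shared regions, and the count of peaks had to fall. Without flanks or with 1 kb the medians were 4.46, 26.5 and 5.25, and with 10 kb the pileup was 24.75. With −log10 q of at least 5 there were 18 peaks, 7 shared and 3 matched regions, a fold enrichment of 4.83 and a pileup of 28.5. With a fold enrichment of at least 5 there were 8 peaks, 2 shared regions and 0 matched, a fold enrichment of 5.46 and a background of 3.48. With 50% reciprocal overlap fold enrichment was 4.46 and background 5.25. With summits within 100 bp there were 7 shared regions, with 4.45, 21.5 and 5.25. Leaving out 1 replicate left 14 or 16 peaks, with medians over its peaks of 4.11 to 4.40 for fold enrichment, 21.5 to 24.5 for pileup and 4.68 to 5.35 for background. A tolerance of 20 bp left 4 matched regions, and 100 bp, each replicate's summits or, chosen after seeing the data, positions from the rRNA element kept the count within 1.5 times. The cause of these shifts was not tested. No paired analysis was possible because there was only 1 group.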
